A study of Mus musculus with 272 samples.

Results

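Nonhomologous end joining (NHEJ) is a main route by which cells reseal DNA double-strand breaks, including those cut by Cas9. The Ku heterodimer binds the broken ends and recruits DNA-PKcs, nucleases and polymerases trim or fill them, and a ligase complex joins them. 53BP1 and RIF1 protect ends from resection and so favor this route over homologous recombination. Here, 10 genes of the pathway were followed in the chromatin maps of mouse muscle stem cells (MuSCs): *Xrcc5* (Ku80), *Xrcc6* (Ku70) and *Prkdc* (DNA-PKcs) for break recognition, *Dclre1c* (Artemis) and *Poll* (DNA polymerase lambda) for end processing, *Lig4*, *Xrcc4* and *Nhej1* (XLF) for ligation, and *Trp53bp1* and *Rif1* for pathway choice. They were chosen by gene name, and are 10 of the 21938 protein-coding genes of the GENCODE M21 annotation of mm10.

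The study profiled Cas9 repair outcomes in MuSCs of Pax7Cas9 mice, which carry Pax7Cre and a Cre-dependent Cas9-EGFP at Rosa26, so that Cas9 and GFP mark cells of the Pax7 lineage. Of its 272 samples, the 8 used here are libraries of GFP-sorted MuSCs from skeletal muscle, with 2 replicates each of ATAC-seq (open chromatin), H3K4me3 (a mark of promoters), H3K27ac (acetylation found at promoters and enhancers in use) and H3K27me3 (the Polycomb mark). The labels of these libraries give no guide, age or strain, and do not say whether the replicates came from separate animals. Each library has a list of peaks, which reports for every peak its position, its fold enrichment over the local background at the summit, and its p and q values, but no read numbers, so the sequencing depth behind a value is unknown. There is 1 cell type and no treated group, hence every result below is a description and no test was possible.

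The lists held 140937 and 94574 ATAC-seq peaks, 20519 and 18006 H3K4me3 peaks, 24217 and 18589 H3K27ac peaks and 6080 and 10485 H3K27me3 peaks in replicates 1 and 2. ATAC-seq replicate 1 stood apart, since 97.3% of its 1000 peaks of highest fold had no overlapping peak in replicate 2, whereas 0% of the 1000 strongest peaks of replicate 2 lacked a counterpart. Of 92 ATAC-seq peaks of replicate 1 at the NHEJ genes, 2 were among those 1000 and neither was at a promoter. All 13 MuSC marker genes checked, among them *Pax7* and *Myf5*, carried ATAC-seq and H3K4me3 promoter peaks in both replicates and 12 carried H3K27ac. Markers of other cell types were less fully marked, with ATAC-seq, H3K4me3 and H3K27ac at 6, 5 and 3 of 10 markers of fibro-adipogenic cells, 8, 5 and 1 of 10 of endothelial cells, 7, 4 and 1 of 9 of blood cells and 9, 5 and 3 of 10 of myofibers. Over all protein-coding genes the shares were 67.8%, 60.8% and 46.6%. ATAC-seq at the endothelial, blood and myofiber markers was above its share, so it set the MuSC markers apart less than the histone marks did.

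The promoters differed in layout before any signal was considered. Of the 10 genes, 5 had the start of a protein-coding gene on the other strand within 1 kb of one of their own annotated starts, compared with 12.3% of all protein-coding genes. These pairs were *Xrcc6* with *Desi1* (144 bp apart), *Prkdc* with *Mcm4* (466 bp), a subunit of the replicative helicase, *Poll* with *Gm17018* (84 bp), *Lig4* with *Abhd13* (21 bp) and *Xrcc4* with *Tmem167* (41 bp). A peak over such a pair cannot be assigned to either gene. The closest case beyond this distance was *Dclre1c*, whose start lay 1483 bp from that of *Meig1*. The 12.3% covers genes with and without promoter marks. Among protein-coding genes with an H3K4me3 promoter peak in both replicates, 2502 had a start on the other strand within 1 kb and 10826 did not.

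Promoter sequences are shown for the Ku subunits and for the ligation genes, since these hold the shared, the paired and the lone starts described below. Each window runs from 250 bases before to 50 bases after a RefSeq start (GRCm38.p6, the same assembly as mm10) and is written 5′ to 3′ on the gene's strand, with matches to 8 searched motifs on either strand in capitals.
*Xrcc5* (chr1:72307171-72307470, strand +): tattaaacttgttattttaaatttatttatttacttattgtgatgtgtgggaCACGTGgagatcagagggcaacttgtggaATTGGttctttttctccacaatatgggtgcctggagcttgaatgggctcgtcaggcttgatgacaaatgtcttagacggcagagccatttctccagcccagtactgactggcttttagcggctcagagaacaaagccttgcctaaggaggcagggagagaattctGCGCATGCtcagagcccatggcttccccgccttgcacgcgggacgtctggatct
*Xrcc6* (chr15:82016119-82016418, strand +): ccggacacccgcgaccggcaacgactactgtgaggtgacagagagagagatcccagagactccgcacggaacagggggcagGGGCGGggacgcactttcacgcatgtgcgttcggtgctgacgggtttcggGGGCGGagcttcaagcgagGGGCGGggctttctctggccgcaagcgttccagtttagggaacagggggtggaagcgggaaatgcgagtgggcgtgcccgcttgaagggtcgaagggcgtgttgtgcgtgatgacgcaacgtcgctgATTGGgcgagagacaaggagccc
*Lig4*, start near *Abhd13* (chr8:9977631-9977930, strand -): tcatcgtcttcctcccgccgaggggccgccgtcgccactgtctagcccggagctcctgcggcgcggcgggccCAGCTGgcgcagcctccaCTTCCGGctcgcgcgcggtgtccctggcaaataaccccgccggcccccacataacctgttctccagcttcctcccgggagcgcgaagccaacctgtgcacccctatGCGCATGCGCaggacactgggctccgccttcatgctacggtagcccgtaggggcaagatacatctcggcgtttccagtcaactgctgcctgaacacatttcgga
*Lig4*, downstream start (chr8:9976262-9976561, strand -): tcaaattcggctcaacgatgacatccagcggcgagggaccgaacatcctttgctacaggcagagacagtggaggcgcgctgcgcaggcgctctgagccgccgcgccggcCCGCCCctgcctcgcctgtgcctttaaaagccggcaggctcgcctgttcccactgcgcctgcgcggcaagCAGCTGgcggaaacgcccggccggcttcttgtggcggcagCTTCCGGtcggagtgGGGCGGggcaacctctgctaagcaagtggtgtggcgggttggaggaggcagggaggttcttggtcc
*Xrcc4* (chr13:90089559-90089858, strand -): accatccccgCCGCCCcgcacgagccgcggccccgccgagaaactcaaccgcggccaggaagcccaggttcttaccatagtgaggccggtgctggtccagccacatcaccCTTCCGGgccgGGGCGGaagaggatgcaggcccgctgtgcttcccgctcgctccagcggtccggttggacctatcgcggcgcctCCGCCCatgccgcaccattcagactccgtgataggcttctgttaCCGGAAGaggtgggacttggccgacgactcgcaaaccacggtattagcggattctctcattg
*Nhej1* (chr1:75125177-75125476, strand -): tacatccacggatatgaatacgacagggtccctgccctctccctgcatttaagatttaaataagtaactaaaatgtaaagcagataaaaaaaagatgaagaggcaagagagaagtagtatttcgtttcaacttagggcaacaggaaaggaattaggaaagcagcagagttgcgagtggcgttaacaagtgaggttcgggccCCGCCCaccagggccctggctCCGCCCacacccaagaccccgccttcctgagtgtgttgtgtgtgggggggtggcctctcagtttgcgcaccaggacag

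The motifs were the Sp/KLF box GGGCGG, the CCAAT box, the ETS motif CCGGAAG, the NRF1 motif GCATGCGC, the E-boxes CACGTG and CAGCTG, the cAMP response element TGACGTCA and the AP-1 motif TGANTCA. The reference table held windows for 7 of the 10 genes, 8 windows in all because *Lig4* had 2. GGGCGG stood in 6 of 8 windows (35.6% of the 32817 windows of the table) and CCGGAAG in 4 of 8 (8.86%), namely *Dclre1c*, both *Lig4* windows and *Xrcc4*. GCATGCGC stood in 2 of 8 (2.71%), at *Xrcc5* and at the *Lig4* start near *Abhd13*, where it overlaps itself on the other strand. CAGCTG was found in 3 of 8 (16.3%), CCAAT in 3 of 8 (37.4%) and CACGTG in 1 of 8 (7.15%), while TGACGTCA (1.79%) and TGANTCA (7.81%) had no match. All 8 windows exceeded the median CpG observed-to-expected ratio of the table, which was 0.383, with values from 0.505 at *Dclre1c* to 1.04 at *Xrcc6*. The *Xrcc5* and *Nhej1* windows were also low in this range, at 0.527 and 0.523, and had the lowest GC content, at 48% and 50.7%, while *Trp53bp1* was at 0.817.

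All 10 genes carried the marks of an active promoter. A promoter here means 3 kb on each side of any annotated start of the gene, and a gene counted as marked where both replicates listed a peak there. ATAC-seq marked 10 of 10 genes (67.8% of all protein-coding genes), H3K4me3 10 of 10 (60.8%) and H3K27ac 10 of 10 (46.6%). H3K27me3 marked 0 of 10 (4.81%), and no NHEJ gene had an H3K27me3 promoter peak in either replicate. Of the H3K27me3 peaks in replicates 1 and 2, 52.7% and 61.5% reached q 0.05. A peak of the other replicate overlapped 68.3% and 34.8% of them. An unlisted H3K27me3 peak therefore does not show that the mark was absent. The combined state, with the 3 active features in both replicates and no H3K27me3 in either, was met by 10 of 10 genes against 44.4% of all protein-coding genes. When promoters were taken at the 5′-most end of each gene alone, *Xrcc6* left this state and the count was 9 of 10, because its 5′-most annotated start, at chr15:81987835, had no H3K4me3 or H3K27ac peak and its marks lay at the start at chr15:82016369 beside *Desi1*.

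**Figure D1:**
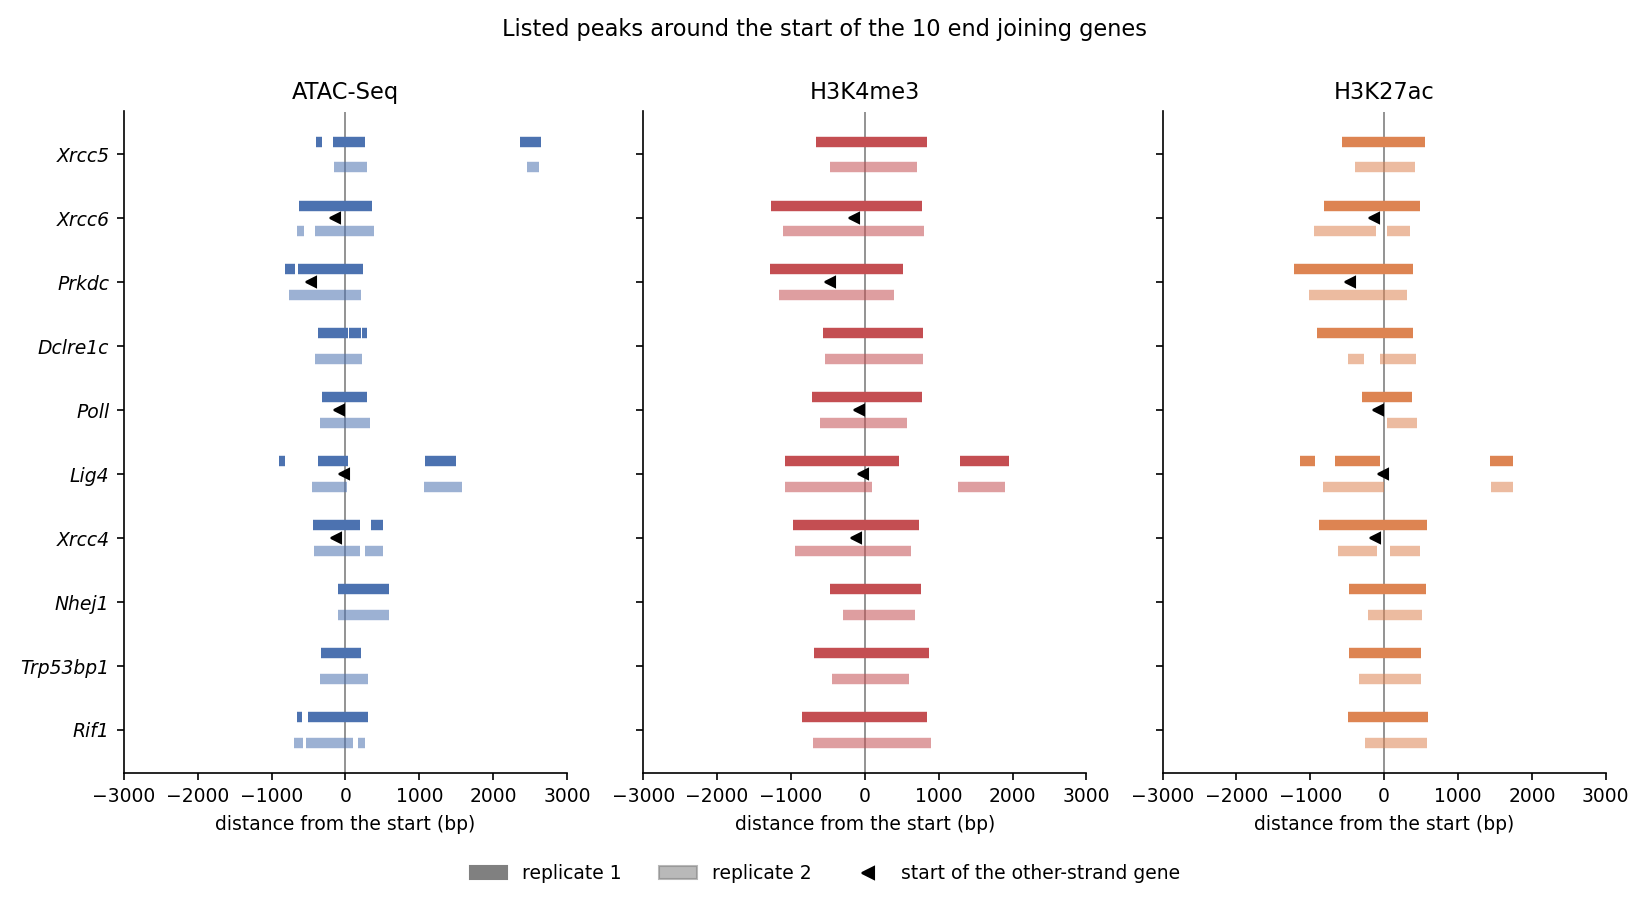
Listed ATAC-seq, H3K4me3 and H3K27ac peaks within 3000 bp of the start of each of the 10 NHEJ genes, with the distance from the start in bp on the x axis (negative is upstream) and replicate 1 above replicate 2 for each gene. The start shown is the annotated one nearest the middle of the gene's strongest H3K4me3 promoter peak in replicate 1. Bars span the peaks and arrowheads mark the nearest start of a gene on the other strand where it lies within 1 kb. All genes have a peak of each feature near the start, and *Lig4* has an additional set downstream.

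For each gene, the folds and widths below are those of its strongest promoter peak of each feature, unless another peak is named. Among the break recognition genes, *Xrcc5*, whose product pairs with Ku70, had a lone promoter with moderate enrichment. Its strongest ATAC-seq promoter peak had folds of 15.4 and 15.4 in replicates 1 and 2, its H3K4me3 peak 18.2 and 14.3, and its H3K27ac peak 12.3 and 6.94. The H3K27ac value thus differed between replicates more than the other 2 features. A weaker ATAC-seq peak 2493 bp into the gene (chr1:72309783-72310064) was listed in both replicates and had no histone peak over it. *Xrcc6* had ATAC-seq folds of 14.6 and 12.4, H3K4me3 folds of 34.2 and 18.2, and H3K27ac folds of 11.5 and 14.8. Its H3K4me3 peak of 2033 and 1916 bp was the widest among the 10 genes in both replicates. It covered the *Desi1* start 144 bp from that of *Xrcc6*, but not every annotated *Desi1* start. *Prkdc*, encoding the kinase that Ku recruits, had ATAC-seq folds of 14.9 and 13.6, H3K4me3 folds of 21.6 and 12.9, and H3K27ac folds of 9.58 and 12.9. Its ATAC-seq peak, at 873 and 984 bp, was broad compared with the median of 423.5 and 521 bp over marked genes, and spanned the *Mcm4* start.

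The end processing genes differed in openness. *Dclre1c*, encoding the nuclease that opens hairpins and trims ends, had ATAC-seq folds of 22.1 and 20.4, H3K4me3 folds of 23.2 and 18.6, and H3K27ac folds of 10.1 and 6.46. *Poll*, encoding a polymerase that fills gaps, had the lowest ATAC-seq folds of the 10 genes in both replicates, 9.97 and 9.52, with H3K4me3 folds of 24.96 and 15.4 and H3K27ac folds of 10.3 and 6.25.

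The ligation genes included the highest ATAC-seq and the lowest H3K4me3 folds of the 10 genes. *Xrcc4*, the scaffold of the ligase, had ATAC-seq folds of 28.4 and 28.4, the highest, with H3K4me3 folds of 36.4 and 25.9 and H3K27ac folds of 19.01 and 11.6. Its ATAC-seq peak ranked 361 of 15886 marked genes in replicate 1 and 85 of 15058 in replicate 2. *Nhej1*, the partner of XRCC4, had ATAC-seq folds of 14.9 and 13.8, the lowest H3K4me3 folds at 15.7 and 12.7, and H3K27ac folds of 18.4 and 11.8. Its H3K4me3 peak was also the narrowest of the strongest peaks of the 10 genes in both replicates, at 1234 and 980 bp.

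*Lig4*, the ligase itself, was the only gene of the 10 with 2 H3K4me3 promoter peaks in each replicate, which lay at separate starts. At the start shared with *Abhd13* (chr8:9977686), the H3K4me3 peak had folds of 29.3 and 22.3, the H3K27ac peak 13.4 and 12.1, and the ATAC-seq peak 11.2 and 8.09. At the downstream start (chr8:9976299), H3K4me3 reached 14.04 and 8.21, H3K27ac 7.56 and 5.77, and ATAC-seq 11.3 and 11.4. The histone marks were therefore higher at the shared start in both replicates, whereas the ATAC-seq folds were close in replicate 1 and higher at the downstream start in replicate 2. The window of the downstream start, printed above, holds matches to the ETS motif, the Sp/KLF box and the CAGCTG E-box. ATAC-seq peaks without a histone peak also lay near further starts of other NHEJ genes. Examples in both replicates were at *Xrcc6* (chr15:82027721-82028048, folds of 8.74 and 8.97) and *Trp53bp1* (chr2:121223044-121223387, 12.96 and 14.4).

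The pathway choice genes had strong H3K4me3. *Trp53bp1*, encoding 53BP1, had ATAC-seq folds of 24.1 and 25.1, H3K4me3 folds of 41.6 and 36.3, and H3K27ac folds of 17.6 and 10.3. *Rif1*, encoding its effector, had ATAC-seq folds of 14.9 and 16.1, H3K4me3 folds of 41.8 and 27.9, and H3K27ac folds of 9.58 and 7.72. *Rif1* thus combined one of the highest H3K4me3 values of the 10 genes with low H3K27ac.

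Because folds have no common scale between libraries, each gene was also ranked among all protein-coding genes with a promoter peak in the same list, with 100 as the highest percentile. For ATAC-seq the order ran from *Xrcc4* (98.6 ± 1.21, mean ± SD, n = 2) and *Trp53bp1* (96.2 ± 2.63), whose replicate ranges overlapped, to *Dclre1c* (91.3 ± 0.48), then over *Rif1*, *Xrcc5*, *Nhej1*, *Prkdc* and *Xrcc6* (from 67.6 down to 55.3) to *Lig4* (40.2 ± 6.08) and *Poll* (28.9 ± 1.58). Of the 9 neighboring pairs in this order, 3 overlapped between replicates. The ATAC-seq percentile of *Lig4* came from the peak at its downstream start, whereas its histone percentiles came from peaks at the start shared with *Abhd13*. For H3K4me3, *Trp53bp1* (96.0 ± 3.15) and *Rif1* (90.4 ± 4.98) were highest and overlapped, *Xrcc4* followed at 83.3 ± 2.19, and *Xrcc5* (35.6 ± 1.49) and *Nhej1* (29.5 ± 2.31) were lowest, with 6 of 9 pairs overlapping. For H3K27ac, means ran from 57.8 for *Xrcc4* to 24.7 for *Poll*, and 9 of 9 neighboring pairs overlapped, so that the order between neighbors was not resolved.

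The median over the 10 genes was at the percentiles 60.5 (replicate 1) and 66.3 (replicate 2) in the ATAC-seq lists, 59.8 and 53.5 in those of H3K4me3, and 40.6 and 44.1 in those of H3K27ac. Above the 50th percentile were 8 genes in each ATAC-seq replicate, 6 in each H3K4me3 replicate and 3 in each H3K27ac replicate. The NHEJ promoters were therefore all marked, with enrichments spread on both sides of the middle of marked genes.

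**Figure D2:**
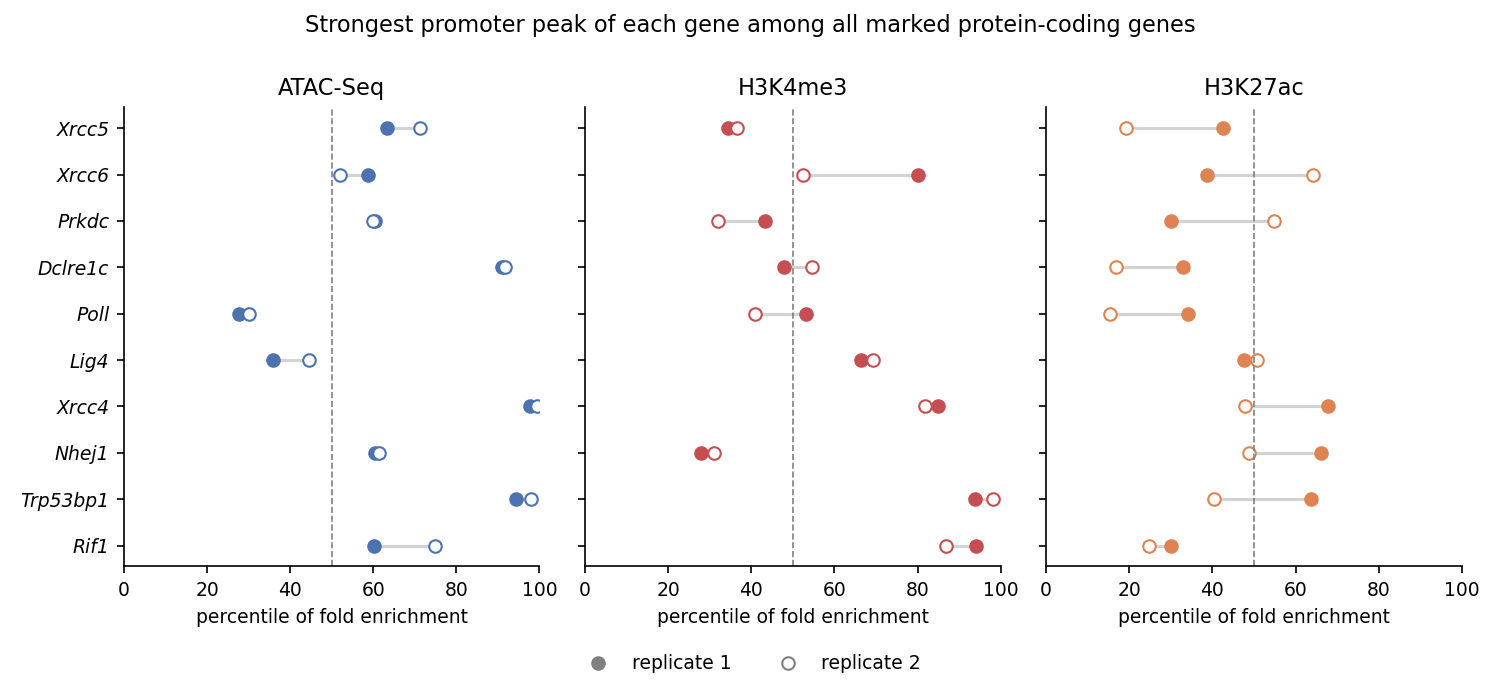
Percentile of the strongest promoter peak of each NHEJ gene by fold enrichment among all protein-coding genes with a promoter peak in the same list (x axis, 0 to 100), for ATAC-seq, H3K4me3 and H3K27ac. Filled circles are replicate 1, open circles replicate 2, and the dashed line is the 50th percentile. *Xrcc4*, *Trp53bp1* and *Dclre1c* lie above 90 in both ATAC-seq replicates and *Poll* at 27.8 and 29.99.

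Among the NHEJ genes, the side of the start on which H3K4me3 peaked differed with layout. The start used for each gene was the annotated start nearest the middle of its strongest H3K4me3 promoter peak in replicate 1. In the 5 genes with a start on the other strand, the H3K4me3 summit lay upstream of the gene's own start in both replicates, at -391 and -385 bp for *Xrcc6*, -263 and -265 bp for *Xrcc4*, -235 and -224 bp for *Lig4*, -211 and -224 bp for *Poll* and -147 and -141 bp for *Prkdc*. In the 5 genes without one, it lay downstream, at 145 and 181 bp for *Xrcc5*, 153 and 139 bp for *Rif1*, 83 and 60 bp for *Nhej1*, 83 and 34 bp for *Trp53bp1* and 62 and 64 bp for *Dclre1c*. The ranges of both sets did not overlap. Among all H3K4me3-marked protein-coding genes, the summit was upstream in both replicates in 41.6% of 2502 genes with such a start and in 21.3% of 10826 genes without. Counts of 5 of 5 and 0 of 5 stood beside these shares. The summit was downstream in both replicates in 46.4% of the 2502 genes and in 70.5% of the 10826. Downstream was thus the more frequent side in both groups of marked genes. The split of the NHEJ genes was by annotation, but the side of the summit was chosen for comparison after the values were seen. The start it was measured from was itself picked by the H3K4me3 peak. For H3K27ac, 4 of 5 genes with a start on the other strand had the summit upstream in both replicates (43.7% of such genes), *Poll* being the exception, and 0 of 5 of the others did (26% of such genes).

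**Figure D3:**
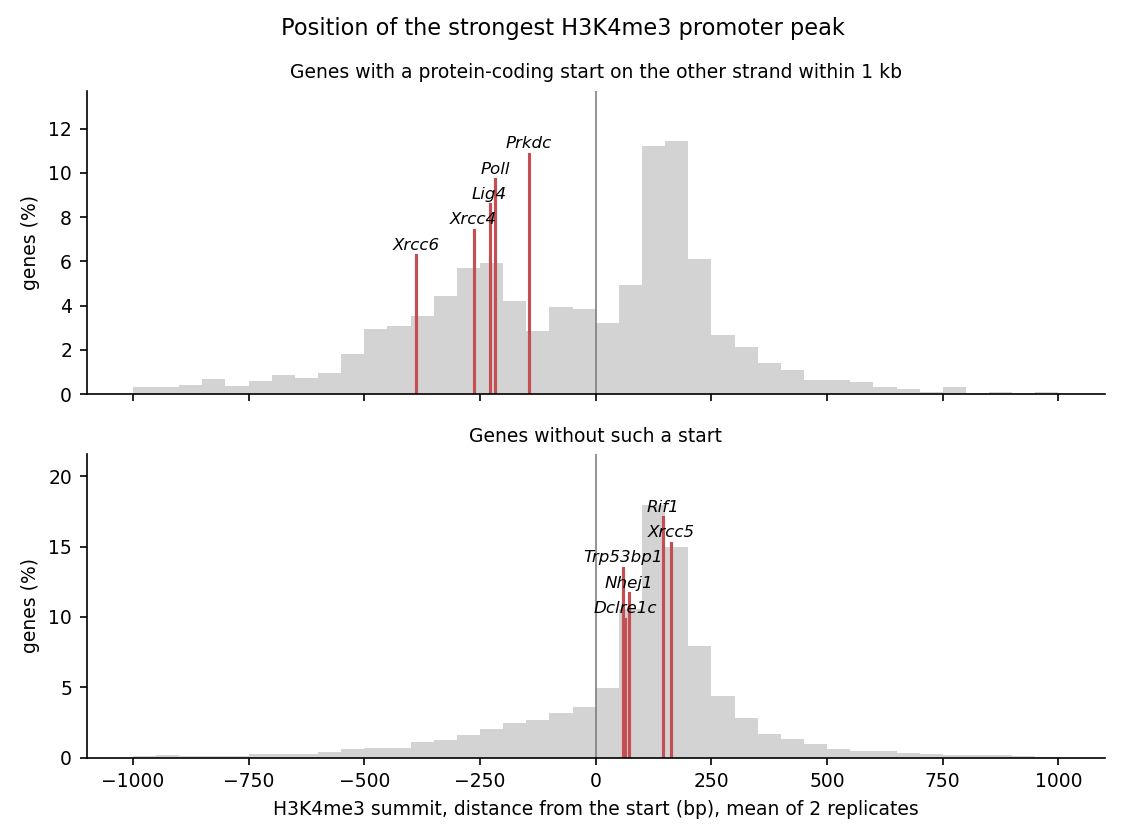
Distance in bp from the start to the summit of the strongest H3K4me3 promoter peak (x axis, negative is upstream, mean of 2 replicates), as the percentage of marked protein-coding genes per 50 bp (gray bars), for genes with and without a protein-coding start on the other strand within 1 kb. Red lines mark the 10 NHEJ genes, with line heights set for legibility. For these genes, the start is the annotated one nearest the middle of the strongest H3K4me3 promoter peak in replicate 1. The 5 lines of the upper panel lie left of 0 and the 5 of the lower panel right of 0.

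The shape of H3K27ac around the start also varied. In replicate 2, *Xrcc6*, *Dclre1c* and *Xrcc4* each had 2 H3K27ac peaks on either side of an annotated start where replicate 1 had 1 continuous peak. The strongest ATAC-seq promoter peak lay wholly inside an H3K4me3 peak in 9 of 10 genes in each replicate, against 81.2% (replicate 1) and 67.4% (replicate 2) of the 13143 protein-coding genes with both features.

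Beyond the promoters, the genes and 20 kb of flank on each side were searched for peaks more than 3 kb from a start of any gene. A gene was counted where a peak of this kind was shared by both replicates. ATAC-seq gave 7 of 10 genes (52.6% of all protein-coding genes), H3K4me3 1 of 10 (8.57%), and H3K27ac 0 of 10 (10.1%). *Dclre1c* and *Lig4* had no such ATAC-seq peak in either replicate, and *Rif1* had 1 in each that did not overlap. There were 48 ATAC-seq peaks of this kind in replicate 1, of which 45.8% had a counterpart in replicate 2 (55.8% over the list), and 24 in replicate 2, of which 83.3% had one (82.3%). With ATAC-seq replicate 1 left out, 8 of 10 genes had such a peak, compared with 56.6% of all protein-coding genes. The NHEJ genes were long, with a median of 65189 bp against 17425 bp, so more sequence was searched at each. Per 100 kb, the median number of ATAC-seq peaks away from promoters was 3.33 at the NHEJ genes and 2.28 at all protein-coding genes in replicate 1, but 1.26 and 1.43 in replicate 2.

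**Figure D4:**
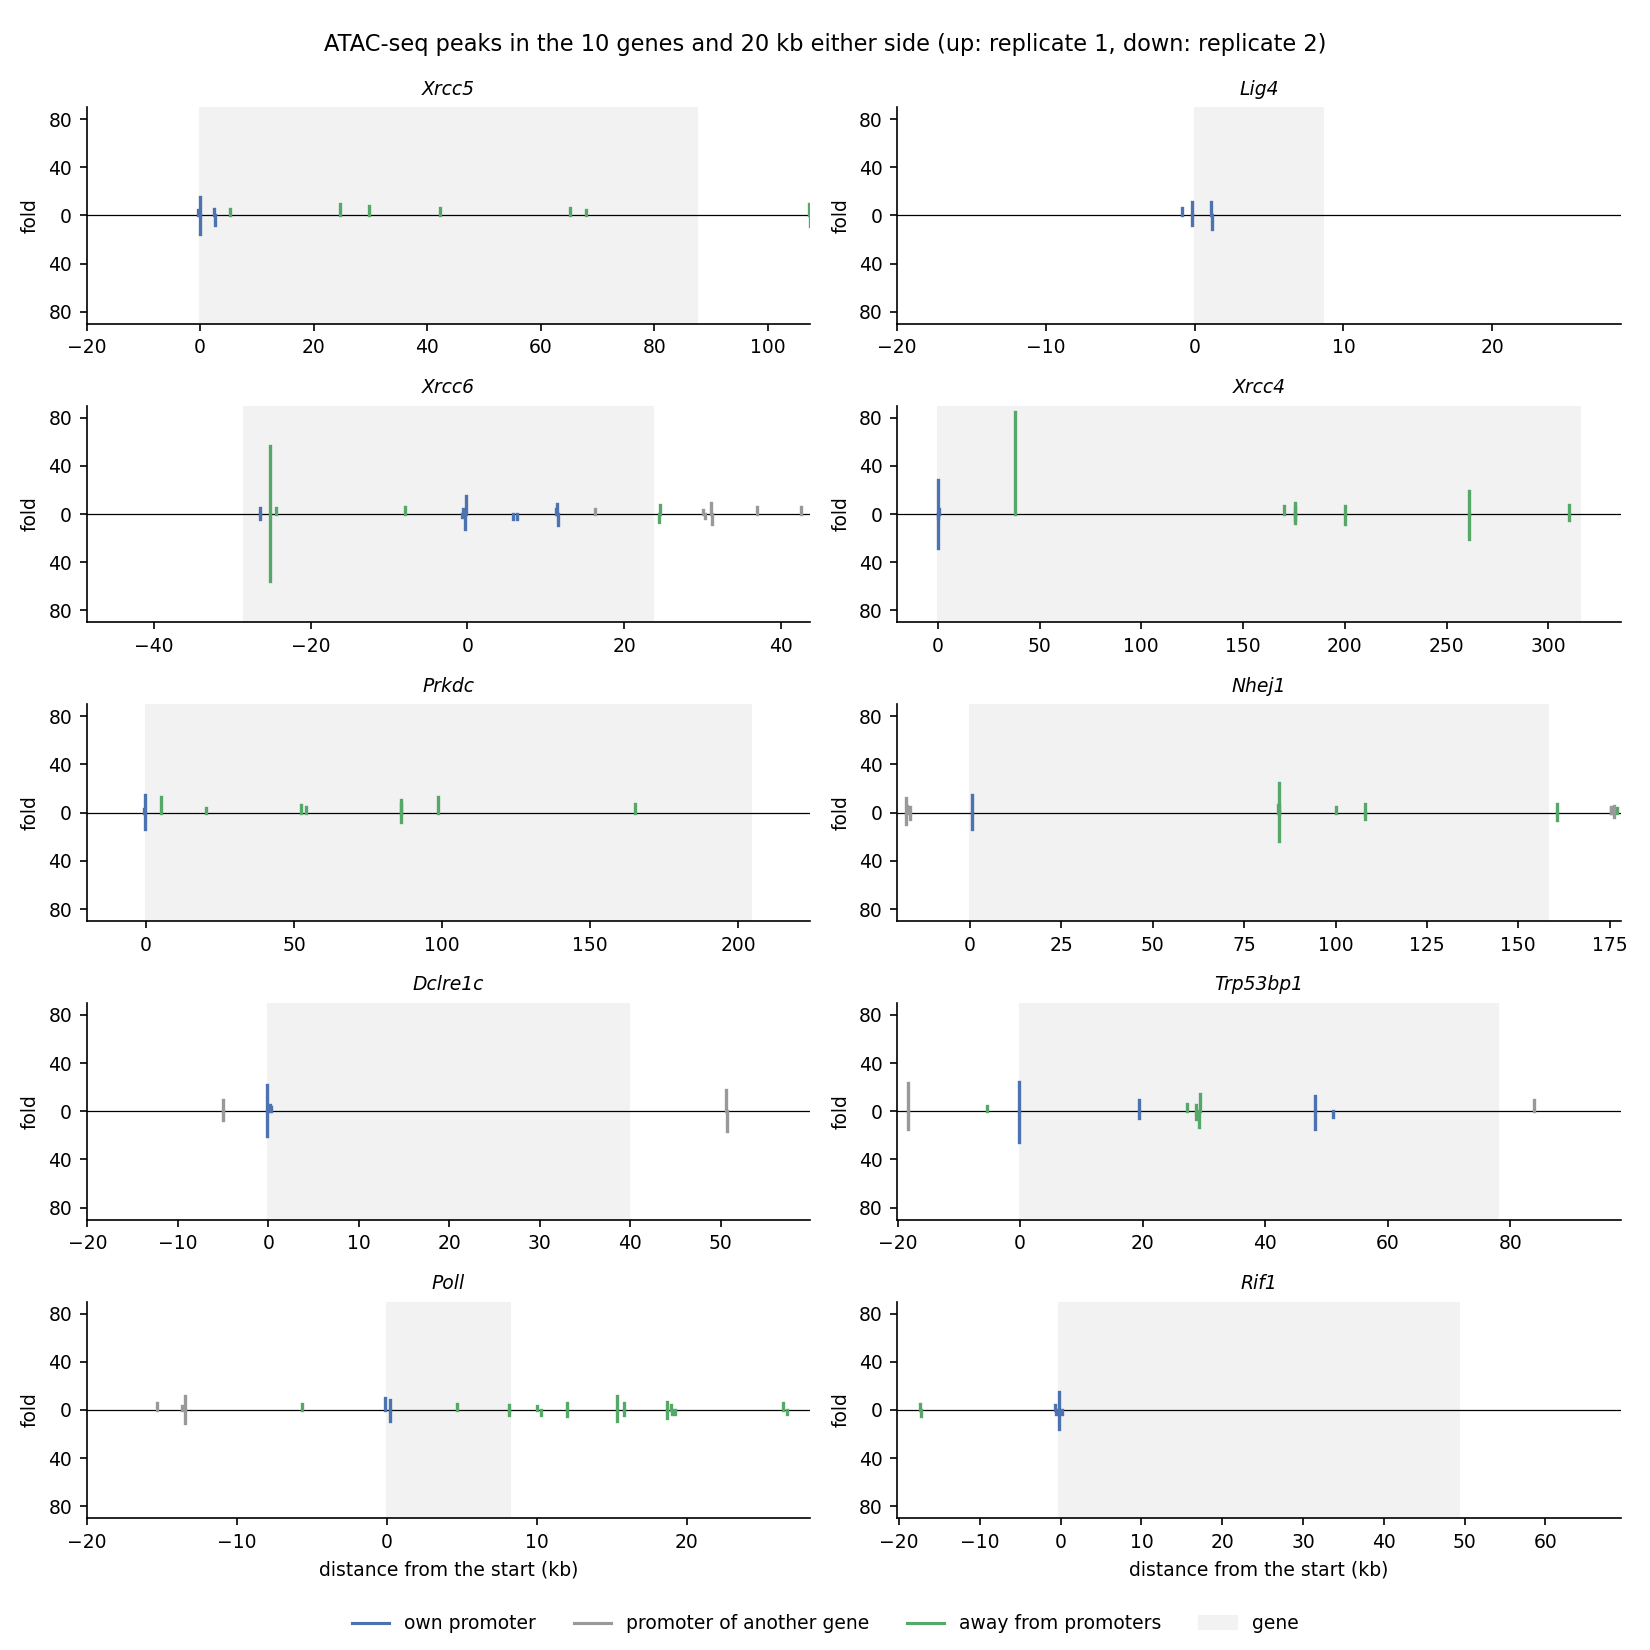
ATAC-seq peaks in each NHEJ gene and 20 kb on either side, placed by distance from the start in kb (x axis, gene running left to right) with fold enrichment as height (y axis), replicate 1 upward and replicate 2 downward. The start is the annotated one nearest the middle of the gene's strongest H3K4me3 promoter peak in replicate 1. Colors give peaks at the gene's own promoter, at a promoter of another gene and away from promoters, and gray shading spans the gene. The intronic peak of *Xrcc6* reaches 56.3 and 55.7, and the peak of *Xrcc4* at 84.8 is in replicate 1 only.

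The 22 shared peaks, counted in replicate 1, fell at *Poll* (6), *Xrcc4* (5), *Nhej1* (4), *Xrcc6* (2), *Prkdc* (2), *Trp53bp1* (2) and *Xrcc5* (1). A histone peak overlapped 7 of them, or 31.8%, compared with 21.6% of 48588 such peaks in the genome, and 0 carried H3K27ac in both replicates, compared with 8.23%. For the 22, a histone peak listed in either replicate was enough, and the 7 were not independent. At *Poll*, 4 lay under H3K4me3 at 2 places. At *Prkdc*, 2 shared an H3K27ac peak of replicate 1. At *Xrcc4*, 1 had H3K4me3 in replicate 1 only and H3K27ac in replicate 2 only. Of the 22, 3 regions are printed below, as 100 bases on each side of the summit in replicate 1, with the same motifs in capitals. They include the strongest open site of both replicates at any NHEJ gene, the strongest of those that hold an AP-1 motif, and an H3K4me3-marked one.
*Xrcc6* intron (chr15:81991105-81991305, + strand): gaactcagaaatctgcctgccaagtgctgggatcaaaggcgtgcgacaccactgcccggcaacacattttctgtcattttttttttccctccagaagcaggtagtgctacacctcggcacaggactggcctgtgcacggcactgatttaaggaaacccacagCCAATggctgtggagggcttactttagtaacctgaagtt
*Nhej1* intron (chr1:75040491-75040691, + strand): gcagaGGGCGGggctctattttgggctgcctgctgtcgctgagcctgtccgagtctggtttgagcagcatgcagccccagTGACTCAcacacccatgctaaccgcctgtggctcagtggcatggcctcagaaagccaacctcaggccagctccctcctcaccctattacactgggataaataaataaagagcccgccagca
*Poll* flank (chr19:45545072-45545272, + strand): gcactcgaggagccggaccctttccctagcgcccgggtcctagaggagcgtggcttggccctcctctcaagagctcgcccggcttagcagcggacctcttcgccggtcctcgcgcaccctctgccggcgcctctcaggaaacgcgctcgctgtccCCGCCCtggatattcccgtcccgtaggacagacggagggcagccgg

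The *Xrcc6* site (chr15:81991146-81991261) had folds of 56.3 and 55.7, above the gene's own promoter, and ranked 863 of the replicate 1 list and 13 of the replicate 2 list. It was intronic, narrow, without any histone peak, and 3370 bp from the 5′-most annotated start, hence just outside the 3 kb promoter window. Repeat masking in the reference covered 47.8% of its printed window. The *Nhej1* intronic site (chr1:75040413-75040720) had folds of 24.4 and 23.2, also above its promoter, and no histone peak, and its printed window contains a match to AP-1 and another to the Sp/KLF box. The *Xrcc4* site (chr13:89828500-89828860) had folds of 19.2 and 20.6, the *Trp53bp1* site (chr2:121241819-121242158) 13.99 and 12.8, and the *Prkdc* site (chr16:15723880-15724060) 10.2 and 8.02. These 3 were intronic, and of them the *Prkdc* site had a histone peak, H3K27ac with a fold of 4.22 in replicate 1 only.

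In the flank beyond the 3′ end of *Poll*, H3K4me3 was listed in both replicates at 2 places more than 15 kb from the gene's start and outside any annotated gene. At chr19:45541354-45542044 its folds were 6.82 and 6.61, and at chr19:45544628-45545359 they were 10.4 and 7.82. ATAC-seq peaks lay in both, the strongest with folds of 11.5 and 8.86, and H3K27ac was not listed over either. No other NHEJ gene had H3K4me3 away from promoters in both replicates.

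Over the 22 shared regions, AP-1 (TGANTCA) matched in 4 (26.5% of all such windows in the genome), CAGCTG in 4 (32%), GGGCGG in 6 (7.75%, 4 of the 6 in the *Poll* flank), CCAAT in 3 (20.4%) and CCGGAAG in 1 (1.64%). The other 3 motifs had no match, against 0.416% for GCATGCGC, 3.79% for CACGTG and 0.531% for TGACGTCA. Some of these windows overlap each other. The strongest peak at any NHEJ gene, at chr13:90051569-90051730 in an *Xrcc4* intron, had a fold of 84.8 in ATAC-seq replicate 1 and was absent from replicate 2.

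Other repair genes were set beside the 10. Of 19 further end joining genes with an annotation, 16 had the active state (44.4% of all protein-coding genes), as did 13 of 14 genes of resection and microhomology-mediated joining and 12 of 13 genes of homologous recombination. *Nbn*, part of the MRN complex that senses breaks, had ATAC-seq folds of 17.03 and 14.5, H3K4me3 folds of 42.2 and 29.4, and H3K27ac folds of 22.2 and 20.6, without H3K27me3. *Polq*, the polymerase of microhomology-mediated joining, had ATAC-seq folds of 17 and 16.4 but H3K4me3 folds of 13.05 and 8.55 and H3K27ac folds of 5.18 and 3.52. Thus the H3K27ac folds of *Polq* were below those of all 10 NHEJ genes in both replicates, and those of *Nbn* above them.

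Among the exceptions, *Mad2l2*, the REV7 subunit of shieldin, had all 3 active features and also H3K27me3, at folds of 4.13 and 5.82. *Dntt*, the lymphoid template-independent polymerase, had ATAC-seq peaks (7.64 and 11.2) and no H3K4me3 or H3K27ac promoter peak in the lists. *H2afx*, counted among the 19 as not in the active state, had no promoter peak in any of the 8 lists, ATAC-seq included. Whether peaks there were left out of the lists was not tested, and its state was not assessed further. *Dna2* and *Rad54l* had H3K27ac in replicate 1 only, at 6.13 and 3.83.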

How the data were processed

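Peak lists of 8 libraries were used, and the other 264 samples were not analysed here. The authors trimmed reads with Trim Galore 0.6.10, aligned them to mm10 with BWA 0.7.17-r1188, filtered them with SAMtools 1.5 and bedtools, and shifted ATAC-seq reads with deepTools 3.5.5. They called peaks per library with MACS2 2.2.6, H3K27me3 at a p-value limit of 0.001 and the others at q 0.05. Whether inputs were used in calling is not given in the sources used here. The deposited values per peak are a score (10 times a −log10 p or q), a fold ratio at the summit, and −log10 p-value and q-value. The fold and the −log10 q were used here.

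Peaks on 21 assembled chromosomes were overlapped (1 bp or more) with GENCODE M21 genes, with promoters of 3 kb and flanks of 20 kb, in Python 3.11.15 with pandas 2.3.3. The overlap step was tested on simulated intervals. Sequences came from RefSeq (GRCm38.p6). The genes named are the 10 members, genes with a start within 1 kb, list members without H3K4me3 or with H3K27me3, and *Nbn* and *Polq*. Others (*H2afx*, *Dna2*, *Rad54l*, *Meig1*, window neighbors) were named after their values were seen, and the motif search in open regions and the summit comparison were also chosen then. Members and lists were chosen with earlier results of these data known. Alternatives were other promoter widths, starts, flanks and q limits, and each replicate left out.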

Additional observations from a re-analysis of the deposited data

How the results depend on the processing

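No paired analysis was possible because every result is a description that comes from no test, and the replicate numbers of different features mark different libraries. Of 67 alternatives, 63 left the counts within 1.5 times the reported count, or the median percentile within 1 SD between replicates. The exceptions were as follows. With each replicate left out in turn, the number of NHEJ genes with H3K27ac away from promoters was 1 to 2 in place of 0 (*Xrcc4* without replicate 1, *Prkdc* and *Poll* without replicate 2), and the number with H3K4me3 there was 1 to 2 in place of 1 (*Xrcc4* in addition without replicate 2). With peaks limited to a −log10 q of at least 5, the median H3K27ac percentile was 38.8 in place of 42.3. These alternatives rest on fewer libraries or fewer peaks by construction. The 10 genes kept ATAC-seq promoter peaks under all alternatives run, and H3K4me3, H3K27ac and the active state under all but the 5′-most start, where *Xrcc6* was lost. The lists hold no read numbers, so whether an unlisted peak reflects depth was not tested.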

Other observations

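Within 20 kb of the NHEJ genes lay promoters of other genes with active marks. The *Snu13* promoter beyond the 3′ end of *Xrcc6* had H3K27ac folds of 32.2 and 20.96 and H3K4me3 folds of 47.9 and 36.3, higher in both replicates than any H3K27ac value of the 10 genes. The *Suv39h2* promoter near *Dclre1c* had H3K4me3 folds of 36.6 and 23.6. The promoters of *Cnppd1* and *Retreg2* near *Nhej1* carried an H3K4me3 peak of 2942 and 2971 bp with folds of 30.9 and 24.7.

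H3K27me3 near the NHEJ genes lay on neighbors. At *Ihh*, beyond the 3′ end of *Nhej1*, 6 peaks were listed in replicate 1 and 8 in replicate 2 at promoters of *Ihh* or *Gm37744*. The strongest had folds of 4.50 and 4.45, with −log10 q of 2.09 and 2.72. A further replicate 2 peak over *Ihh*, outside the promoter window, had a fold of 4.79. At *Map1a*, upstream of *Trp53bp1*, replicates 1 and 2 listed peaks with folds of 3.002 and 3.68 that did not overlap. Their −log10 q was 0.039 and 1.58, and H3K4me3 beside them had folds of 11.7 and 8.37. At *Meig1*, a peak with a fold of 3.08 and a −log10 q of 0.451 was listed in replicate 2 only. H3K4me3 beside it had folds of 14.2 and 7.51. The replicate 1 peak at *Map1a* and the *Meig1* peak were listed by p-value and did not reach the q limit of the other features. They do not show that these promoters carried the mark.

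Over the genome, ATAC-seq peaks of replicate 1 away from promoters held CAGCTG within 100 bases of the summit in 32% of 48588 peaks shared with replicate 2 and in 14.7% of 38440 peaks without a counterpart, and AP-1 in 26.5% and 12.4%. At the NHEJ genes the same counts were 4 of 22 and 1 of 26 for CAGCTG, and 4 of 22 and 3 of 26 for AP-1.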
